A study of Mus musculus with 28 samples.

Results

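Ribosome footprints of mouse primary cortical neurons that carried a wild-type human TDP-43 transgene (hTDP-43, 3 cultures) were compared with those of non-transgenic neurons (WT, 2 cultures). These 5 footprint libraries were chosen from the 28 libraries of the series by cell type, library type and genotype alone. The neurons came from embryonic day 16 cortices of C57BL/6J mice, received 0.5 µM Ara-C, which limits dividing cells, on day 4 in vitro, and were harvested on day 14. The transgene was driven by the mouse prion protein promoter in hemizygous animals, so endogenous mouse Tardbp was present in both groups. Replicate numbers run from 1 to 3 for hTDP-43 and from 2 to 3 for WT, and libraries of the same number carry the same date in the labels, so hTDP-43 replicate 1 had no WT culture of its own date. Beside the footprints stand the 5 total mRNA libraries of the same cultures, 3 footprint libraries of neurons with the patient variant hTDP-43 A315T, which share the WT controls, and 4 footprint libraries of MN1 motor neuron-like cells transfected with hTDP-43 or GFP.

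TDP-43 is a mainly nuclear RNA-binding protein that regulates splicing, stability and transport of many neuronal mRNAs, and it is known to lower its own mRNA when it is in excess. In amyotrophic lateral sclerosis it leaves the nucleus and collects in the cytoplasm, where mRNAs are translated. Ribosome profiling sequences the mRNA stretches that ribosomes shield from RNase, so the footprint count of a gene reflects both the amount of its mRNA and the number of ribosomes on it. The comparison asks whether an excess of wild-type TDP-43 in neurons moved ribosomes onto or off particular mRNAs.

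The libraries were unequal in depth. Reads assigned to genes were 2389229, 192008 and 166064 in hTDP-43 replicates 1, 2 and 3, and 1304116 and 575476 in WT replicates 2 and 3. A count of 3 stood for 1.26 CPM, the count scaled to the library's total of assigned reads, in the deepest library and 18.1 CPM in the shallowest, and 10535 and 3475 genes, respectively, reached 10 counts there. Levels of genes are given as CPM on library sizes scaled by edgeR's trimmed mean of M values (TMM), and fold changes as hTDP-43 over WT on the log2 scale. hTDP-43 replicates 2 and 3 stood apart from the other 3 libraries on the first 2 principal components (51.3% and 30.1% of the variance of 2000 genes), and the lowest correlation of log2 CPM between libraries was the one between these cultures (0.831), against 0.959 between hTDP-43 replicate 1 and WT replicate 2. The loci Gm14236 and Gm37194, not annotated as protein-coding, and the gene Yipf1, a Golgi membrane protein gene, were those with the most reads in single libraries. Gm37194 held 9.0% of hTDP-43 replicate 3 and 4.97% of WT replicate 3. Protein-coding genes held between 88.5% and 95.6% of the reads.

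No gene passed the test in the comparison of 3 hTDP-43 with 2 WT footprint libraries. Of 8117 genes tested with edgeR's quasi-likelihood test, 0 had a Benjamini-Hochberg adjusted p below 0.05, and the smallest was 0.197, for Gfi1. At an unadjusted p below 0.05 there were 234 genes higher (2.88%) and 185 lower (2.28%) in hTDP-43, and DESeq2 gave 0 adjusted calls with 55 higher (0.678%) and 26 lower (0.32%) at that unadjusted level. In 838 genes (10.3%) every hTDP-43 library lay above every WT library, and in 751 genes (9.25%) every one lay below. The median log2 fold change of all genes was -0.01, with 4002 of the 8117 genes positive and 4115 negative. With hTDP-43 replicate 1 left out, which compares replicates 2 and 3 of each genotype, 0 of 6575 genes were called without the replicate block (smallest adjusted p 0.981, with 123 higher and 137 lower at an unadjusted p below 0.05).

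With the replicate number as a block, 5 of 8117 genes (0.0616%) passed the same edgeR test. Vgf, Ccn3, Fam167a and Mpeg1 rose (0.0493% of genes tested) and Nfkb1 fell (0.0123%) in hTDP-43. At an unadjusted p below 0.05 the blocked fit had 262 genes higher (3.23%) and 261 lower (3.22%). In that fit a fold change comes only from the pairs of replicates 2 and 3, because hTDP-43 replicate 1 has no partner, and the spread of a gene rests on 1 residual degree of freedom before it is pooled over genes. With replicates 2 and 3 alone and the block, 2 of 6575 genes were called, Fam167a and Nfkb1.

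**Figure D1:**
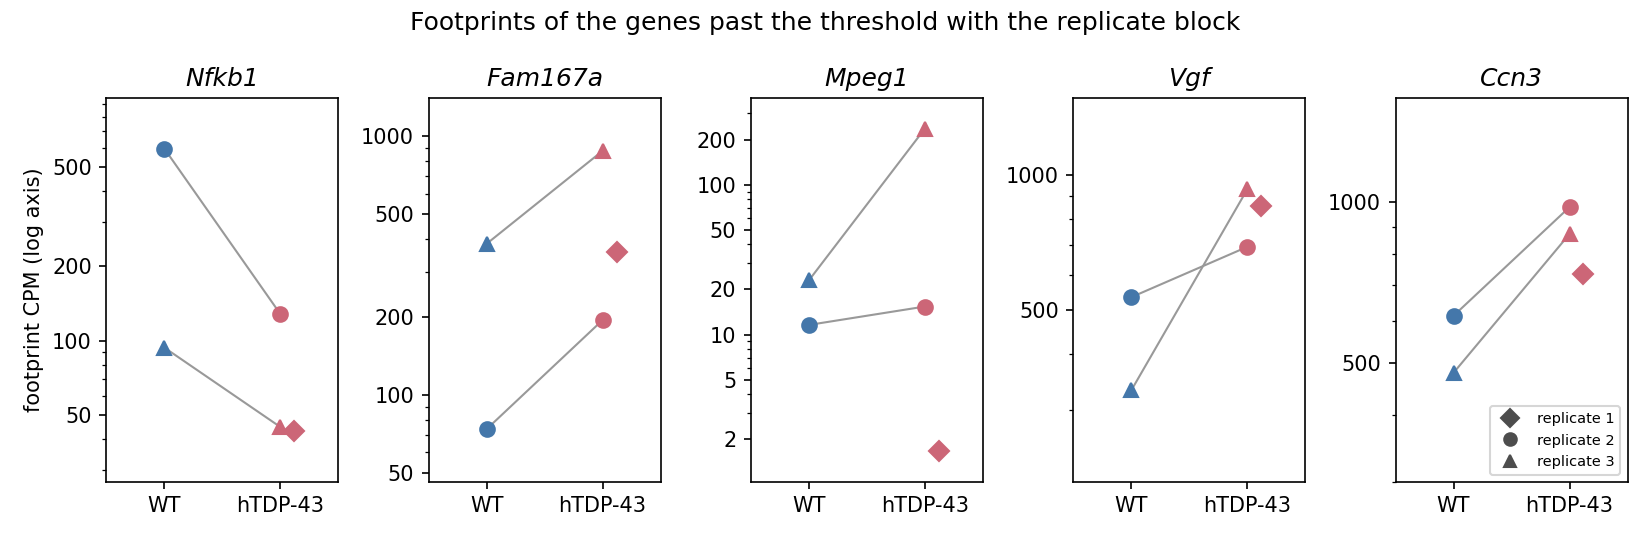
Footprint level (CPM, logarithmic axis) of the 5 genes called with the replicate block in the 2 WT (blue) and 3 hTDP-43 (red) libraries; marker shape gives the replicate number and grey lines join libraries of the same number. Both lines rise for Fam167a, Mpeg1, Vgf and Ccn3 and fall for Nfkb1, while only Vgf and Ccn3 have every hTDP-43 point above both WT points.

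Vgf encodes a neuropeptide precursor that neurons secrete and that neurotrophins and activity induce (chr5:137026392-137033351, plus strand, GRCm38). Its footprints were 855, 692 and 930 CPM in hTDP-43 replicates 1 to 3 and 535 and 331 CPM in WT replicates 2 and 3. Every hTDP-43 library lay above both WT libraries, with means of 826 ± 122 (SD, n = 3) and 433 ± 144 (SD, n = 2) CPM. The log2 fold change was 0.92 (SE 0.21) with an edgeR adjusted p of 0.341, and 0.88 (SE 0.18) with an adjusted p of 0.0167 under the block. Total mRNA of Vgf in the same cultures gave a log2 fold change of 0.79 (SE 0.34), and its translational efficiency, the footprint difference beyond the total mRNA difference, was 0.15 (SE 0.44).

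Ccn3 encodes a secreted matricellular protein of the CCN family (chr15:54745702-54754039, plus strand). It measured 736, 980 and 872 CPM in the hTDP-43 libraries and 613 and 480 CPM in WT. Here too the groups did not overlap. Its log2 fold change was 0.64 (SE 0.19, edgeR adjusted p 0.724), and 0.75 (SE 0.16, adjusted p 0.0241) with the block, while total mRNA differed by 0.58 (SE 0.31) on the log2 scale. No Ccn3 read was counted in the 4 MN1 libraries, so the gene could not be compared there.

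Nfkb1 encodes the p105 precursor of an NF-kappa-B transcription factor subunit (chr3:135584655-135691547, minus strand). Footprints were 43.1, 128 and 44.9 CPM in the hTDP-43 libraries and 595 and 93.8 CPM in WT replicates 2 and 3. The WT library of replicate 2, with 822 reads on the gene, stood far above the other 4, and hTDP-43 replicate 2 lay above WT replicate 3. Without the block the log2 fold change was -2.64 (SE 0.56, edgeR adjusted p 0.317), and with it -1.995 (SE 0.26, adjusted p 1.85e-06). Total mRNA in the same WT culture did not stand out, at 86.1 CPM against 79.8 CPM in WT replicate 3 and 32.0, 155 and 51.6 CPM in hTDP-43. The 3 A315T footprint libraries held 79.6, 39.3 and 48.5 CPM.

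Fam167a, a little-studied gene on chromosome 14 (63436394-63465498, plus strand), measured 358, 195 and 879 CPM in hTDP-43 and 73.9 and 384 CPM in WT. The groups overlapped, but the hTDP-43 culture was above the WT culture in both pairs, 195 against 73.9 CPM and 879 against 384 CPM. The log2 fold change was 1.06 (SE 0.55, edgeR adjusted p 0.915), and 1.26 (SE 0.19, adjusted p 4.00e-05) with the block. Its total mRNA was likewise high in both replicate 3 cultures, 444 CPM in hTDP-43 and 551 CPM in WT, against 57.1 to 114 CPM in the others, and its blocked total mRNA difference was -0.01.

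Mpeg1, a perforin-like gene of macrophages and microglia, owes its call to 1 library. It had 4, 3 and 37 reads in hTDP-43 replicates 1 to 3 and 16 and 13 reads in WT, or 1.66, 15.4 and 237 CPM against 11.6 and 23.0 CPM. Only hTDP-43 replicate 3, the shallowest library, was high. The blocked log2 fold change was 2.50 (SE 0.45, edgeR adjusted p 0.00258), it was 1.11 (SE 1.33) without the block, and it turned to -2.39 when hTDP-43 replicate 3 was left out. Total mRNA in that culture was 13.4 CPM, within the range of the WT cultures (13.2 and 16.5 CPM). Defining microglia markers were nearly absent: 8 of 14 had no read in any of the 5 libraries, Csf1r, Trem2, Tyrobp and C1qa among them, and the summed level of the 14 was 22.8, 25.6 and 38.5 CPM in hTDP-43 and 15.2 and 21.2 CPM in WT.

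Endogenous Tardbp, the gene of TDP-43, did not pass the test. Footprints on the mouse gene (chr4:148612382-148627019, minus strand) were 78.8, 76.9 and 64.1 CPM in hTDP-43 and 94.9 and 99.1 CPM in WT. The 3 values lay below both WT values, with means of 73.3 ± 7.98 (SD, n = 3) and 97.0 ± 3.02 (SD, n = 2) CPM. The log2 fold change was -0.35 (SE 0.21, edgeR adjusted p 0.918), and -0.44 (SE 0.31) with the block, from 10 to 190 reads per library. Total mRNA gave -0.29 (SE 0.34), with overlapping groups. Reads were aligned to the mouse genome, so the human transgene was not counted as a gene of its own, and how many of its reads fell on mouse Tardbp was not tested. In MN1 cells, where hTDP-43 came from a transfected plasmid, Tardbp footprints were 433 and 480 CPM with hTDP-43 and 329 and 307 CPM with GFP, a log2 fold change of 0.52 (SE 0.18). The difference between the cell types was -0.81 (SE 0.28, unadjusted p 0.00846, edgeR adjusted p 1.00). Prnp, whose promoter drives the transgene, had 409, 472 and 417 CPM in hTDP-43 and 466 and 411 CPM in WT, a log2 fold change of -0.04 (SE 0.17).

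The genes that the study followed in later experiments gave small differences in these neurons. The paper picked them from mRNAs whose translation, in its ribosome profiling, changed with the A315T protein alone. In its later MN1 assays, reporters and protein levels of Camta1 and Mid1ip1 rose with wild-type hTDP-43 as well. There the Dennd4a reporter was enhanced by A315T only. Camta1, a calmodulin-binding transcription activator, had 233, 292 and 192 CPM in hTDP-43 and 236 and 207 CPM in WT, a log2 fold change of 0.10 (SE 0.19). Dennd4a, an exchange factor for Rab GTPases, gave 0.14 (SE 0.24) and Mid1ip1, the gene of MIG12, a microtubule-binding partner of Mid1, 0.07 (SE 0.31). In all 3 the groups overlapped. Pth1r, the parathyroid hormone receptor, had too few reads to be tested, with 5.13 to 12.4 CPM across the libraries.

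**Figure D2:**
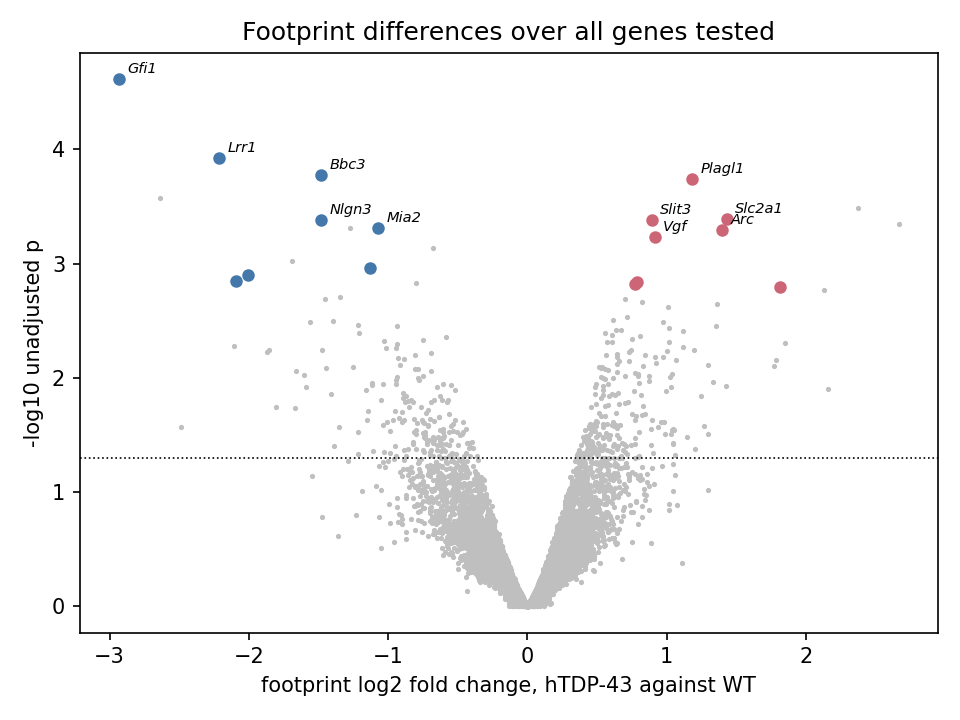
Footprint log2 fold change of hTDP-43 against WT (horizontal) and -log10 of the unadjusted p of edgeR's test (vertical) for the 8117 genes tested, with the unadjusted threshold of 0.05 dotted. Red and blue points are the 8 protein-coding genes per direction with the smallest p whose groups did not overlap, and none reached an adjusted p below 0.05.

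Ranked by unadjusted p, the 8 leading protein-coding genes that were higher in every hTDP-43 library were Plagl1, Slc2a1, Slit3, Arc, Vgf, Irs2, Tenm2 and Gadd45b. Their log2 fold changes ran from 0.77 (Tenm2) to 1.82 (Gadd45b), and none of them passed the adjusted threshold without the block. Slc2a1, the glucose transporter GLUT1, had 46.9, 46.2 and 77.0 CPM in hTDP-43 and 20.3 and 15.9 CPM in WT. All 3 hTDP-43 values lay above both WT values, as the choice of these genes required, though hTDP-43 replicate 2 and WT replicate 3 held only 9 reads each. It gave 1.43 (SE 0.32, edgeR adjusted p 0.317) in footprints and 0.31 (SE 0.37) in total mRNA. Slit3, a secreted axon guidance ligand of Robo receptors, had 158, 180 and 160 CPM against 99.2 and 70.8 CPM, a log2 fold change of 0.89 (SE 0.20, edgeR adjusted p 0.317) and 0.97 (SE 0.24, adjusted p 0.171) with the block. The imprinted zinc finger gene Plagl1 had 99.1, 82.1 and 70.6 CPM against 41.3 and 37.2 CPM. Irs2, an adaptor of the insulin receptor, and Tenm2, a synaptic adhesion protein of the teneurin family, gave 0.79 (SE 0.20) and 0.77 (SE 0.20).

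Lower in every hTDP-43 library, in order of p, were Gfi1, Lrr1, Bbc3, Nlgn3, Mia2, B4galt2, Ptges3l and Syde2, with log2 fold changes from -1.07 (Mia2) to -2.93 (Gfi1). Gfi1, a transcriptional repressor best known from blood cells, had 8, 1 and 2 reads in hTDP-43 and 44 and 19 in WT, or 3.32, 5.13 and 12.8 CPM against 31.9 and 33.6 CPM. The libraries of both groups were separate, as the choice of these genes required, at counts of 3 or fewer in hTDP-43 replicates 2 and 3. Its log2 fold change was -2.93 (SE 0.50, edgeR adjusted p 0.197), and -1.93 (SE 0.76, adjusted p 0.665) with the block. Nlgn3, a postsynaptic adhesion protein that binds neurexins, had 14.1, 10.3 and 12.8 CPM against 38.4 and 37.2 CPM. These were 34, 2 and 2 reads in hTDP-43 and 53 and 21 in WT, so hTDP-43 replicates 2 and 3 rest on 2 reads each. Total mRNA of Nlgn3 did not move in the same direction, at 0.09 (SE 0.30), and its translational efficiency was -1.56 (SE 0.42, unadjusted p 0.00277, edgeR adjusted p 1.00). Bbc3, the p53 target PUMA that promotes apoptosis, had 24.9, 35.9 and 64.1 CPM against 84.7 and 88.5 CPM, with a total mRNA difference of -0.07 (SE 0.47). Lrr1, a substrate receptor of a ubiquitin ligase, had 8.71, 10.3 and 0 CPM against 31.1 and 49.6 CPM. Its values in hTDP-43 replicates 2 and 3 rest on 2 and 0 reads. Total mRNA of Lrr1 was 436 CPM in hTDP-43 replicate 3 and 423 CPM in WT replicate 3 against 51.3 to 90.5 CPM in the others. The genes Mia2, a cargo receptor of the endoplasmic reticulum, and B4galt2, a galactosyltransferase of the Golgi, gave -1.07 (SE 0.24) and -1.13 (SE 0.28).

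**Figure D3:**
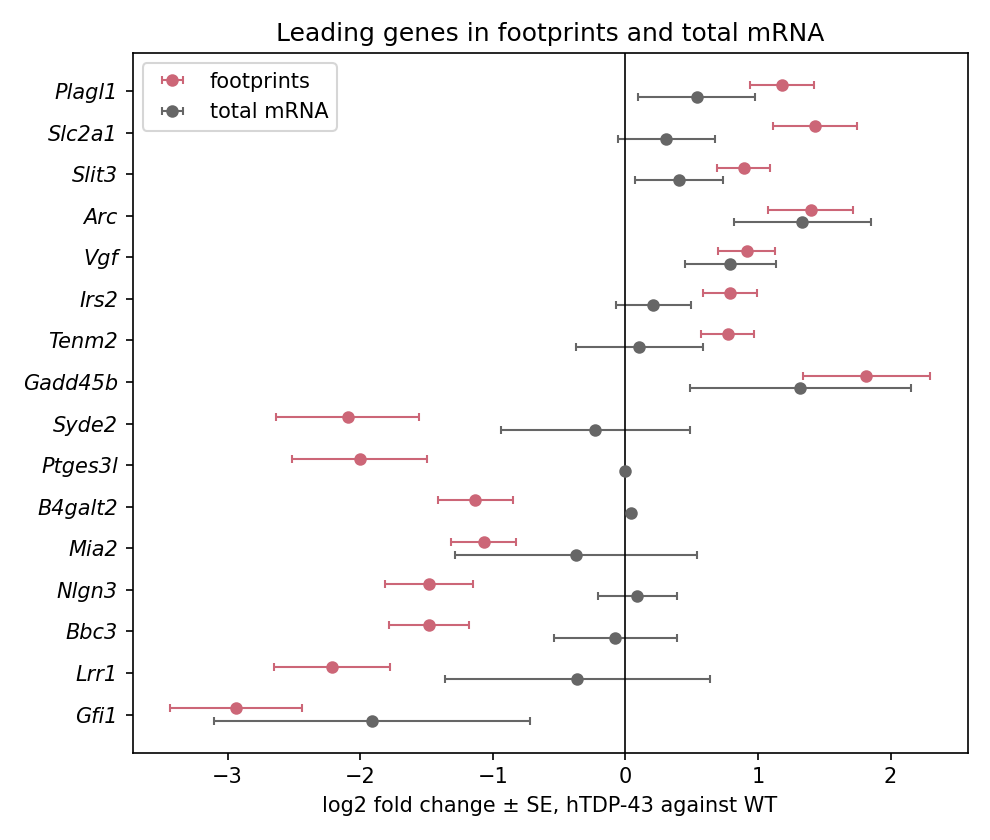
Log2 fold change of hTDP-43 against WT (± SE) in footprints (red) and total mRNA (grey) for the leading genes in each direction; no error bar is drawn where the unadjusted p was above 0.9 (Ptges3l and B4galt2 in total mRNA). Arc and Vgf have similar values in both readouts, while Nlgn3, Bbc3, B4galt2 and Ptges3l lie near 0 in total mRNA.

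Activity-dependent immediate-early genes, which neurons switch on within minutes of synaptic activity, held the highest median among the gene lists with at least 10 tested members, and this difference sat in 1 culture. Of 23 listed genes 19 were tested and 18 had a positive log2 fold change, 14 of them (73.7%, against 2.88% of all genes) at an unadjusted p below 0.05, with a median of 0.65 against -0.01 over all genes. None of the 19 passed the adjusted threshold in edgeR's test. The summed level of the 23 genes was 2077 CPM in hTDP-43 replicate 1, 1082 and 1187 CPM in hTDP-43 replicates 2 and 3, and 1107 and 1073 CPM in WT replicates 2 and 3. The culture with no WT library of its own date was the high one, and the other 4 did not separate by genotype. hTDP-43 replicate 1 held the highest value of the 5 libraries in 17 of 19 genes (89.5%), against 16% of all genes tested. With replicates 2 and 3 alone the median was 0.06, and with the block it was 0.12, with 1 gene higher and 2 lower of 19 at an unadjusted p below 0.05, against 3.23% and 3.22% of all genes in that fit.

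The same culture was high in total mRNA, and the A315T culture of the same date was high in footprints. Summed total mRNA of the 23 genes was 1977 CPM in hTDP-43 replicate 1, 1179 and 1258 CPM in replicates 2 and 3, and 1074 and 1040 CPM in WT. Footprints of A315T replicates 1 to 3 summed to 2235, 1424 and 1150 CPM. The date of culture and the genotype cannot be told apart for replicate 1, since no WT culture carries its date.

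Single genes differed in how the hTDP-43 libraries lay. Arc, a postsynaptic protein of synaptic scaling, had 69.7, 41.0 and 38.5 CPM in hTDP-43 and 26.1 and 15.9 CPM in WT. All 3 hTDP-43 libraries lay above WT, as its choice among the leading genes required, replicate 1 by the most. The log2 fold change was 1.4 (SE 0.32, edgeR adjusted p 0.317), or 0.86 with the block (adjusted p 0.819). Gadd45b, a stress- and activity-induced gene, had 24.5, 15.4 and 32.1 CPM against 6.52 and 7.08 CPM, and was 1 of the 2 tested members whose highest library was not hTDP-43 replicate 1. It held 59, 3 and 5 reads in hTDP-43 and 9 and 4 in WT. The next genes were chosen after their values were seen. Fos, the transcription factor most often used to mark active neurons, had 116, 10.3 and 51.3 CPM against 34.0 and 33.6 CPM. Nptx2, a secreted pentraxin of excitatory synapses, had 208, 35.9 and 103 CPM against 55.0 and 60.2 CPM, and Npas4, a calcium-induced transcription factor, 60.2, 15.4 and 6.41 CPM against 22.5 and 21.2 CPM. In each of the 3, hTDP-43 replicate 1 was the highest library and replicate 2 lay below both WT libraries. Reads in hTDP-43 replicates 2 and 3 were few, at 2 and 8 for Fos, 7 and 16 for Nptx2 and 3 and 1 for Npas4. Jund, a constitutive Jun family member, was the 1 tested member with a negative value, -0.51 (SE 0.25).

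**Figure D4:**
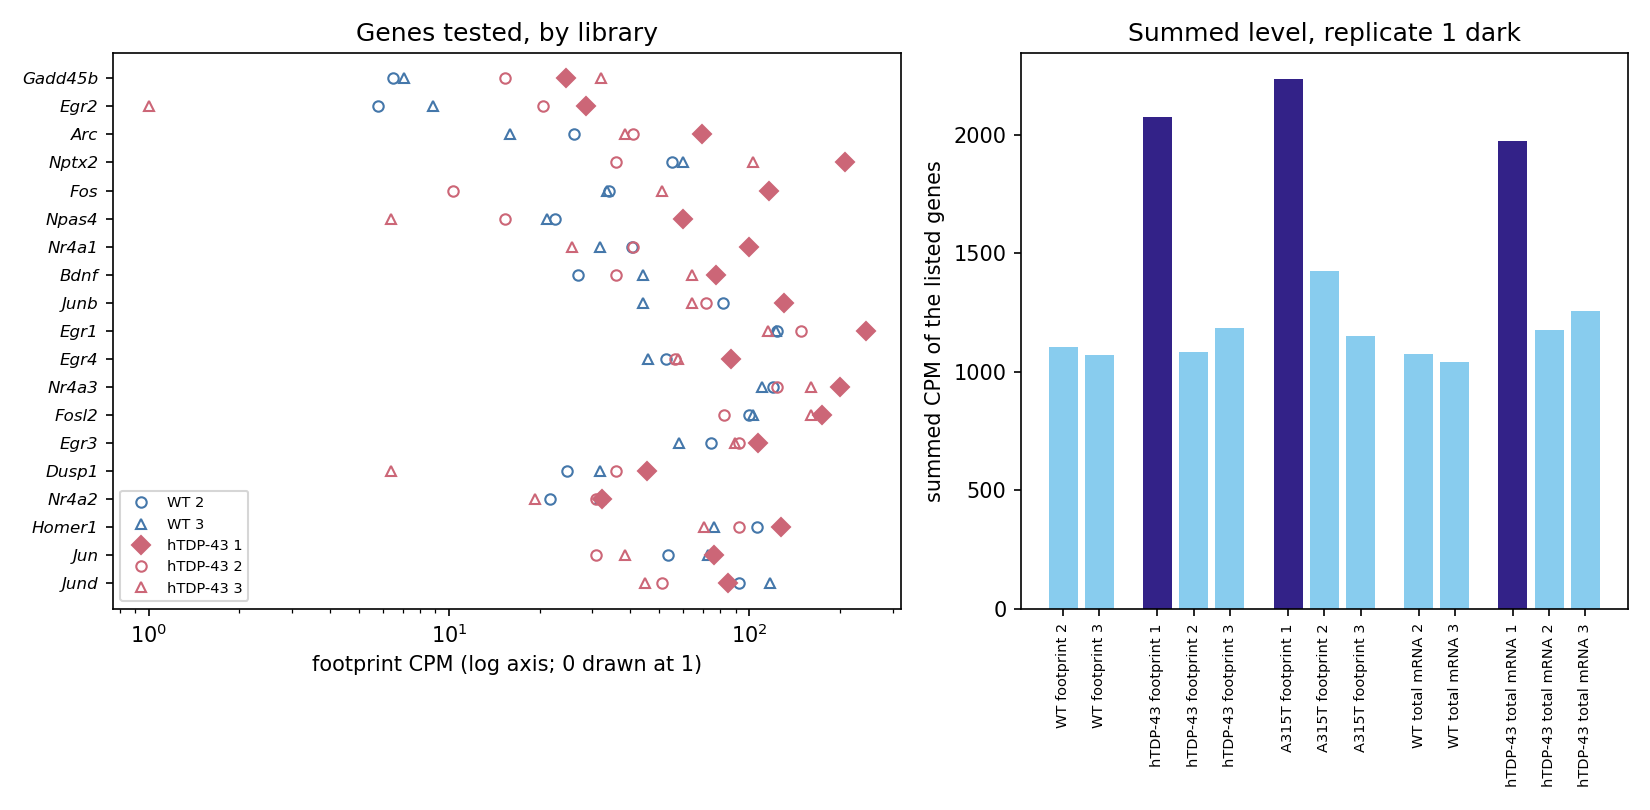
Left, footprint CPM (logarithmic axis, 0 drawn at 1) of the 19 tested immediate-early genes in each WT (blue) and hTDP-43 (red) library, with hTDP-43 replicate 1 as filled diamonds. Right, summed CPM of the 23 listed genes in each footprint and total mRNA library; the 3 dark bars, replicate 1 of hTDP-43 and A315T, stand at 1977 to 2235 CPM and all others at 1424 CPM or less.

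Neuronal identity genes were abundant in every library. The 17 general neuron markers summed to between 13880 and 14710 CPM, with a median log2 fold change of 0.00, and 2 of the 17 (11.8%, against 2.88% of all genes) were higher at an unadjusted p below 0.05, with 0 lower (2.28% of all genes). Map2, the dendritic microtubule-associated protein, had 2134, 1974 and 1879 CPM in hTDP-43 and 1737 and 1354 CPM in WT, and the neurofilament light chain gene Nefl 115, 87.2 and 115 CPM against 71.0 and 70.8 CPM. Both were higher in every hTDP-43 library, with log2 fold changes of 0.36 (SE 0.17) and 0.62 (SE 0.21) and edgeR adjusted p of 0.915 and 0.725. Dcx and Stmn2, by contrast, lay below WT in every hTDP-43 library. They gave -0.31 (SE 0.17) and -0.25 (SE 0.16), with edgeR adjusted p of 0.915 and 0.938. Among the 17 markers, 3 (17.65%, against 10.3% of all genes) were above WT in every hTDP-43 library and 2 (11.8%, against 9.25%) below. Of the excitatory cortical neuron genes (17 tested, median 0.08), 9 were positive and 8 negative. The kinase gene Camk2a gave 0.45 (SE 0.20), and 0.48 in total mRNA, while Tbr1 gave -0.30 (SE 0.22). For GABAergic interneuron genes (16 tested) the median was -0.04 with all libraries and -0.24 with replicates 2 and 3 alone. The enzymes that make GABA, Gad1 and Gad2, gave 0.21 (SE 0.20) and 0.13 (SE 0.22), or -0.05 and -0.23 with the block, and 8 of the 16 genes were positive and 8 negative. The somatostatin gene Sst had 848, 477 and 712 CPM against 626 and 1211 CPM, and the neuropeptide gene Npy gave a log2 fold change of -0.46 (SE 0.29). Their summed level was highest in hTDP-43 replicate 1 (5835 CPM) and WT replicate 3 (5490 CPM) and 3759 to 4462 CPM in the others, so the genotypes overlapped.

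Astrocyte markers were lowest in WT replicate 3. Of 18 listed, 14 were tested and 13 were positive, with a median of 0.33 and 0 at an unadjusted p below 0.05. Their summed level was 2303, 2292 and 2591 CPM in hTDP-43, and 2221 and 1558 CPM in WT. WT replicate 2 lay close to the hTDP-43 cultures and WT replicate 3 below all of them. Apoe, the lipid carrier of astrocytes, had 436, 395 and 654 CPM against 427 and 267 CPM, and the gap junction gene Gja1 23.2, 25.6 and 19.2 CPM against 15.9 and 3.54 CPM. For Gja1 these were 56, 5 and 3 reads in hTDP-43 and 22 and 2 in WT. Gfap and Aqp4 were too low to test. In these bulk lysates fewer cells of a type and less RNA per cell cannot be told apart. Oligodendrocyte lineage markers summed to 59.7 to 96.2 CPM, with Sox10, Mag, Gpr17 and Bcas1 without a read, and their part in the results was not tested.

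Cytoskeletal and synaptic genes had more positive than negative differences in hTDP-43 footprints, and no member passed the test. Among 43 tested neurofilament, tubulin and axon cytoskeleton genes 34 had a positive log2 fold change, against 4002 of 8117 over all genes. Of the 43, 14 (32.6%, against 10.3% of all genes) were above WT in every hTDP-43 library and 2 (4.65%, against 9.25%) were below. The median was 0.16, or 0.14 with replicates 2 and 3 alone and -0.02 in total mRNA. The summed level was 47180, 44380 and 45740 CPM in hTDP-43 and 41440 and 42640 CPM in WT, so these groups did not overlap. Sptan1, the brain alpha-spectrin, had 2137, 2067 and 1802 CPM against 1678 and 1414 CPM, a log2 fold change of 0.37 (SE 0.17, edgeR adjusted p 0.915). Of 48 postsynaptic density and glutamate receptor genes 36 were positive. Of these 48, 13 (27.1%, against 10.3% of all genes) lay above WT in every hTDP-43 library and 2 (4.17%, against 9.25%) below. The median was 0.18 in footprints and 0.19 in total mRNA. Their summed footprint level was 13980, 13760 and 13190 CPM in hTDP-43 and 13060 and 10570 CPM in WT, so WT replicate 2 lay close to hTDP-43. Grm2, a metabotropic glutamate receptor gene, gave 0.66 (SE 0.27), whereas Nlgn3 was the lowest. The synaptic vesicle and release list (46 tested, 32 positive and 14 negative) had a median of 0.10 in footprints and 0.13 in total mRNA. It held Unc13a, a vesicle priming factor whose human mRNA is a known TDP-43 splicing target. Unc13a stood at 464, 441 and 423 CPM against 366 and 282 CPM, a log2 fold change of 0.45 (SE 0.18, edgeR adjusted p 0.915). In the other direction lay Cplx2, a complexin that binds the release machinery, at 349, 410 and 276 CPM against 495 and 407 CPM, a log2 fold change of -0.39 (SE 0.19, edgeR adjusted p 0.915), with overlapping groups.

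Ion channel genes split evenly, with 29 of 52 positive and a median of 0.02. Kcnt1, a sodium-activated potassium channel, was at 44.0, 76.9 and 70.6 CPM against 27.5 and 24.8 CPM (1.00, SE 0.31). Hcn2, a pacemaker channel, gave -0.82 (SE 0.30), or -0.43 with the block. Its levels of 69.3, 87.2 and 135 CPM in hTDP-43 overlapped those of 101 and 205 CPM in WT. Reported TDP-43 target mRNAs showed a median of 0.11, with 20 of 34 positive. Within that list Nrxn3, a presynaptic neurexin, had 419, 323 and 436 CPM against 278 and 262 CPM (0.54, SE 0.18), and Rac1, a small GTPase of actin dynamics, 259, 185 and 218 CPM against 277 and 310 CPM (-0.36, SE 0.18). Both had separate groups and edgeR adjusted p of 0.725 and 0.915. Genes of other amyotrophic lateral sclerosis and frontotemporal dementia loci had a median of 0.12, with 0 of 32 at an unadjusted p below 0.05. Dctn1, the large dynactin subunit and also a member of the cytoskeleton list, gave 0.37 (SE 0.18).

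Among RNA-binding and translation machinery genes, the list medians ran from -0.01 to 0.14. The hnRNP and SR splicing factor list (49 tested) had a median of 0.04, with Hnrnph2 at 0.77 (SE 0.26), Hnrnpll at 0.55 (SE 0.24) and Hnrnph1 at -0.42 (SE 0.19). Hnrnph1 and Hnrnph2 are near-identical paralogs, so their counts are uncertain. Stress granule and FMRP family genes were positive in 22 of 25, against 4002 of 8117 over all genes. Their median was 0.14 in footprints and -0.09 in total mRNA. Edc4, a scaffold of mRNA decapping, stood at 0.51 (SE 0.23) and Ybx1, a cold shock domain protein, at -0.38 (SE 0.24). Translation initiation and elongation factors (50 tested) had a median of 0.06, and cytosolic ribosomal protein genes (76 tested) -0.01, or -0.14 with the block. Many ribosomal protein genes have processed pseudogenes, and their counts are uncertain for that reason.

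Metabolic and stress lists gave medians between -0.13 and 0.25. Glycolysis genes had a positive value in 19 of 20, against 4002 of 8117 over all genes. Their median was 0.25, and 0.07 with replicates 2 and 3 alone, with Pgk1, phosphoglycerate kinase, at 173, 149 and 148 CPM against 114 and 95.6 CPM (0.61, SE 0.19). Cholesterol and fatty acid synthesis genes (33 tested) had a median of 0.10, and Fasn, fatty acid synthase, was at 1213, 1005 and 1122 CPM against 881 and 706 CPM (0.49, SE 0.17), with no overlap of the groups. Nuclear respiratory chain genes had more negative values, with 50 of 76 negative (median -0.06), against 4115 of 8117 over all genes. Among the negative ones were the complex I gene Ndufa5 at 79.6, 82.1 and 57.7 CPM against 114 and 104 CPM (-0.52, SE 0.21) and the complex IV gene Cox6a2 (-1.39, SE 0.40). Cox6a2 held 29, 2 and 2 reads in hTDP-43 and 34 and 24 in WT, and its total mRNA difference was -1.13. Autophagy and lysosome genes had a median of -0.05, with Atg12, a ubiquitin-like autophagy protein, at -0.64 (SE 0.28) and the lysosomal sterol carrier Npc2 at -0.74 (SE 0.34). Integrated stress response genes had a median of -0.13 with all 3 hTDP-43 cultures and 0.15 with replicates 2 and 3 alone, so the sign of the median turned. Atf4, the transcription factor of that response, was at 128, 195 and 199 CPM against 174 and 209 CPM. Heat shock genes (36 tested) and proteasome subunit genes (36 tested) had medians of 0.11 and 0.09, with 0 members of either at an unadjusted p below 0.05. Few interferon-stimulated, vascular, progenitor and cell cycle genes could be tested (1 of 22, 3 of 15, 6 of 13 and 3 of 22). Mcm7, a subunit of the replicative helicase, was the 1 cell cycle gene at an unadjusted p below 0.05, at 192 CPM in hTDP-43 replicate 1 and 66.7 and 44.9 CPM in replicates 2 and 3 against 32.6 and 115 CPM.

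**Figure D5:**
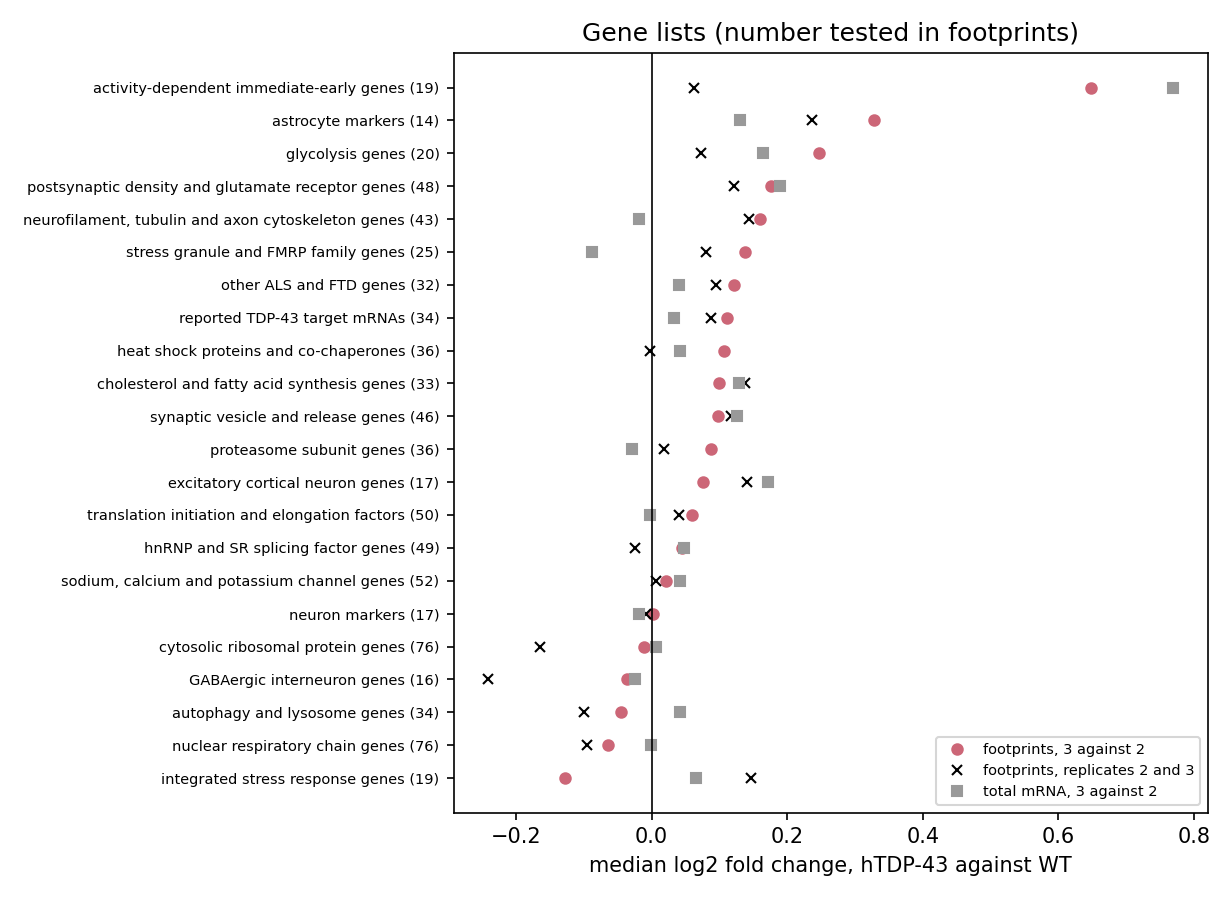
Median log2 fold change of hTDP-43 against WT for each gene list with at least 10 genes tested, in footprints with all 5 libraries (red), in footprints with replicates 2 and 3 only (crosses) and in total mRNA (grey). The immediate-early list lies at 0.65 with all libraries and at 0.06 with replicates 2 and 3.

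The total mRNA libraries were also unequal, from 600385 assigned reads in hTDP-43 replicate 3 to 6969578 in hTDP-43 replicate 1. Lars2 alone held 18.8% of WT replicate 3 and 14.1% of hTDP-43 replicate 3, against 3.09% to 6.84% of the others. Total mRNA of the same cultures held 0 calls among 11828 genes without the block, with 16 higher (0.135%) and 28 lower (0.237%) at an unadjusted p below 0.05 and 0 calls by DESeq2 (11 and 21 at that level, 0.093% and 0.178%). With the block 20 genes passed (0.169%), 5 higher (0.0423%) and 15 lower (0.127%), against 2.79% higher and 3.18% lower at an unadjusted p below 0.05, and 8 of the 15 were transcribed from the mitochondrial genome, with log2 fold changes from -1.58 to -0.92. The 13 mitochondrially encoded protein genes summed to 2895 CPM against 6771 CPM and 6872 CPM against 9727 CPM in hTDP-43 and WT of replicates 2 and 3, and to 10110 CPM in hTDP-43 replicate 1. In footprints the same genes summed to 4965, 5410 and 7883 CPM in hTDP-43 and 3290 and 8988 CPM in WT, which overlapped. Translational efficiency had 0 calls among 10464 genes with and without the block, with 39 higher (0.373%) and 33 lower (0.315%) at an unadjusted p below 0.05 without the block, 39 and 34 (0.325%) with it, and 0 calls by DESeq2 (12 and 14 at that level, 0.115% and 0.134%).

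Set against MN1 cells, the hTDP-43 difference in neuron footprints departed in 0 of 10084 genes without a block (218 higher, 2.16%, and 135 lower, 1.34%, at an unadjusted p below 0.05) and in 5 with it (0.0496%; 3 higher, 0.0298%, and 2 lower, 0.0198%). DESeq2 gave 0 calls, with 31 (0.307%) and 30 (0.298%) at that unadjusted level, and the blocked fit had 250 (2.48%) and 201 (1.99%). MN1 cells carry a transfected plasmid with a GFP control and received cycloheximide before lysis, which the neurons did not. Slit3 had 202 and 126 CPM with hTDP-43 and 202 and 193 CPM with GFP in MN1 cells, and the blocked difference between cell types was 1.25 (SE 0.30, edgeR adjusted p 0.0476). For Fam167a the same difference was 1.56 (SE 0.36, adjusted p 0.0448), with 24.6 to 39.0 CPM in the MN1 libraries.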

How the data were processed

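Per the labels and the study's methods, the authors trimmed reads with cutadapt 1.8.1, removed non-coding RNA reads with Bowtie2, mapped what was left by TopHat2 against GRCm38 and used featureCounts 1.4.4 on Ensembl exons, without a strand option, so reads of overlapping or antisense genes (Gm14236) cannot be told apart. The deposited values are raw counts per gene, 1 table per library, with 45513 genes; 44671 had a biotype. From these, edgeR 4.0.16 in R 4.3.3 fitted quasi-likelihood models to the 5 footprint libraries with TMM scaling, Benjamini-Hochberg adjustment and its filter on low counts (minimum count 10, total 15). Translational efficiency was the interaction of library type and genotype, and the cell type comparison that of genotype and cell type. Standard errors were derived from the fold change and the F statistic of edgeR's test and left out where p was above 0.9.

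Libraries of 1 number share a date in the labels. The number was therefore used as a block in a second fit. As a check, deviations from group means correlated at 0.105 within numbers 2 and 3 and at -0.105 across them over 8117 genes; with 2 WT libraries these signs mirror each other. Alternatives were DESeq2 1.42.0, RLE and upper quartile scaling, 2 other filters and leaving out each library. P-values measure the spread between these cultures only. The steps were tested on simulated data, drawn with the same spread for all genes and without an effect of replicate number or an outlying library. That test therefore does not cover such features of the real libraries.

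Genes named were Tardbp, Prnp, the 4 followed up by the study, all genes called, the 8 protein-coding genes per direction with the smallest p whose groups did not overlap, the 2 members per list and direction with the smallest p, and the gene with the most reads in each library; a few of these are not reported here, and any other gene is said to be chosen after its values were seen or is a cell type marker given by its absence. The comparison, its genes and the gene lists were chosen with earlier results of these data known.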

Additional observations from a re-analysis of the deposited data

Results flagged for a closer look

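With the replicate block, the hTDP-43 footprint difference of neurons departed from that of MN1 cells in 5 genes, by the test of that difference itself (log2, neurons minus MN1, edgeR's quasi-likelihood test with Benjamini-Hochberg adjustment over 10084 genes). They were Gm37194 at 1.57 (adjusted p 2.71e-05), Gm25732 at -1.45 (2.71e-05), Fam167a at 1.56 (0.0448), Mir6236 at -2.34 (0.0448) and Slit3 at 1.25 (0.0476). None of the 5 was called without the block, where all had an adjusted p of 1.00. Gm37194, Gm25732 and Mir6236 are not annotated as protein-coding. Gm37194 also differed between replicate numbers within both cell types. As CPM of the unscaled library totals, it held 4329 and 44120 CPM in GFP replicates 1 and 2 of MN1 cells, 2026 and 50850 CPM in hTDP-43 replicates 1 and 2 of MN1 cells, 5924, 34890 and 90010 CPM in hTDP-43 replicates 1 to 3 of neurons, and 14930 and 49740 CPM in WT replicates 2 and 3 of neurons. Transfection, cycloheximide treatment and cell type differ together between the neurons and MN1 cells and cannot be told apart.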

How the results depend on the processing

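Over the alternatives, 720 values of named genes kept both their direction and their side of the threshold, 38 changed sign and 28 passed the threshold. For list medians, 284 values moved by less than the spread between libraries and 39 by more. RLE and upper quartile scaling, the stricter filter and DESeq2 left all counts of called genes at 0.

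The replicate block gave 5 called genes in footprints (2 with replicates 2 and 3 only), 20 in total mRNA (26) and 5 between cell types (3), where the fits without it gave 0. Under the block the sign turned for Prnp (0.0144, and 0.00768 with replicates 2 and 3 only), Mid1ip1 (-0.164 and -0.168), Gm14236 (-0.764 and -0.771), Gad1 (-0.0472 and -0.0541), Gad2 (-0.229 and -0.236), Atf4 (0.049 and 0.0421), Mcm7 (-0.204 and -0.202), Fos (-0.301 and -0.305), Nr4a1, chosen after its values were seen (-0.101 and -0.109), and Npas4 (-0.928, block with all libraries).

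Without a low-count filter, 58 genes were called in footprints of 17933 tested, 50 in total mRNA, 18 in translational efficiency and 11 between cell types. The cause was not tested.

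Leaving out 1 culture at a time gave 0 to 11 calls in footprints (4 without hTDP-43 replicate 3, 3 without WT replicate 2, 11 without WT replicate 3) and 0 to 2 between cell types (2 without WT replicate 3); a group left with 1 library is assumed to vary like the other. Log2 fold changes that changed sign ran from -0.13 to 0.0567 for Prnp, -0.0251 to 0.199 for Camta1, -0.0287 to 0.422 for Dennd4a, -0.229 to 0.72 for Mid1ip1, -2.39 to 1.6 for Mpeg1, -0.511 to 0.882 for Gm14236, -0.686 to 1.67 for Gm37194, -0.756 to 0.584 for Yipf1, -0.0522 to 0.309 for Gad1, -0.222 to 0.308 for Gad2, -0.82 to 0.127 for Sst, -0.94 to 0.0528 for Npy, -0.409 to 0.0392 for Atf4, -0.211 to 2.03 for Mcm7, -0.251 to 1.57 for Fos and -0.143 to 1.25 for Nr4a1. Without WT replicate 3, Nfkb1 (-3.37, edgeR adjusted p 9.72e-07), Fam167a (2.60, 0.0238) and Gfi1 (-2.92, 0.0454) were among the calls, and without hTDP-43 replicate 3, Gfi1 (-3.19, 0.0286) and Bbc3 (-1.71, 0.0378).

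At the depth of hTDP-43 replicates 2 and 3, a count of 3 stood for 15.6 and 18.1 CPM of the unscaled library totals.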
